A study of Mus musculus with 16 samples.

Results

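The mitochondrial respiratory chain was examined through 94 genes, chosen by their symbols. A gene was taken where the annotation of the array gives a probeset 1 symbol that starts with Ndufa, Ndufb, Ndufc, Ndufs or Ndufv (complex I), Sdh (complex II), Uqcr (complex III), Cox4, Cox5, Cox6, Cox7 or Cox8 (complex IV) or Atp5 (complex V). These symbols belonged to 185 of 45037 probesets. Where a symbol had several probesets the brightest on average was kept, which gave 94 of 18193 genes. Of these, 80 encode subunits, namely 34 of complex I, 4 of complex II, 8 of complex III, 17 of complex IV and 17 of complex V. The other 14 share a prefix without being subunits: 12 are assembly factors, and Ndufa4l2 and Cox7a2l are relatives of subunits. Ndufa4 was counted with complex IV, where its protein is now placed. Cox7b, Ndufa11, Ndufb4b, Ndufb4c and Ndufs6 had no probeset with their symbol alone and were not analysed here.

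RNA from mouse skin of the FVB background was hybridised to MOE430 2.0 arrays of Affymetrix, with a single array for each sample. Control skin (n = 4) was normal skin, which the methods of the study call wild type. The p53 tumors (n = 7) were squamous cell carcinomas of k14Cre;p53loxP/loxP mice, and the pRbp53 tumors (n = 5) came from k14Cre;p53loxP/loxP;pRbloxP/loxP mice. Both genotypes thus shared the Cre and the floxed p53 alleles, which the controls lacked. The keratin 14 promoter drives Cre in basal keratinocytes of stratified epithelia, so that muscle, fat and stroma in a sample were not its target. By histology the p53 tumors comprised 3 poorly differentiated, 1 undifferentiated, 1 spindle cell and 2 mixed carcinomas, and the pRbp53 tumors 4 spindle cell carcinomas and 1 mixed. A figure legend of the study gives its normal control skin as that of adult mice, without naming these samples. No other ages were found in the sources used here.

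The respiratory chain sits in the inner mitochondrial membrane. Complexes I and II feed electrons from NADH and succinate to ubiquinone, complex III passes them on to cytochrome c, and complex IV (cytochrome c oxidase) hands them to oxygen. The protons pumped on the way drive complex V, the ATP synthase. A few subunits of complex IV are encoded by pairs of genes, with 1 form found mainly in heart and skeletal muscle and the other in most tissues. Skin samples of mice can include the panniculus carnosus, a sheet of skeletal muscle below the dermis.

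The arrays were of like brightness, with medians of 5.63 to 5.76 on the log2 scale. In 2 arrays, control skin 3 and p53 tumor 7, the signal of the 3′ end of actin exceeded that of its 5′ end by 1.33 and 1.67, against 0.21 to 0.68 in the others, and this difference grows as RNA breaks down. Control skin 2 and control skin 4 correlated at 0.996 across probesets, against 0.970 to 0.984 in the other pairs of controls. The mean log2 signal of 21 skeletal muscle markers lay between 11.98 and 12.12 in control skin, between 4.70 and 6.11 in the p53 tumors and between 4.68 and 8.10 in the pRbp53 tumors. Of these markers, 19 were lower in the tumors. All 9 adipocyte markers and 6 of 8 keratinocyte markers were lower as well. The keratinocyte markers, whose mean was 12.06 to 12.22 in control skin, reached 4.75 to 10.81 in the p53 tumors and 4.63 to 5.20 in the pRbp53 tumors. In bulk samples, fewer cells of a type and less RNA per cell cannot be told apart.

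RefSeq promoters (build GRCm38.p6, 250 bases before to 50 after the start) were found for 78 of the 94 genes. Those of the isoform pairs on which the results turn are shown 5′ to 3′ in lower case, with motifs in capitals. The motifs, searched on both strands, were that of NRF-1 (GCGCA, any base, then GCGC), that of ETS factors such as GABP (CCGGAAG), the E-box of muscle regulators (CAGCTG) and the site of MEF2. Cox6a2 had no entry. The general forms come first, followed by the muscle forms.
Cox6a1, chr5:115348909-115349208, minus strand: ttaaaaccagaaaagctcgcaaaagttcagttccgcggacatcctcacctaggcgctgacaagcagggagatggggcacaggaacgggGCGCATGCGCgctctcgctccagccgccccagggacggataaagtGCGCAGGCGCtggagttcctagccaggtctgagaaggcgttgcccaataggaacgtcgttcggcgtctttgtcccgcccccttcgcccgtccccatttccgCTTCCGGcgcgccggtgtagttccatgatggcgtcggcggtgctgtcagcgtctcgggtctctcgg
Cox7a2, chr9:79759804-79760103, minus strand: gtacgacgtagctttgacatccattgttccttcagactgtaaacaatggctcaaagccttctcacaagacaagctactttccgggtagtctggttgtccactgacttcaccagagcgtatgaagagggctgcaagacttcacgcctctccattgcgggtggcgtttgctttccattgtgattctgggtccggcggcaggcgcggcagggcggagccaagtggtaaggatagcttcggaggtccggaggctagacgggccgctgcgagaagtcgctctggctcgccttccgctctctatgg
Cox8a, chr19:7217567-7217866, minus strand: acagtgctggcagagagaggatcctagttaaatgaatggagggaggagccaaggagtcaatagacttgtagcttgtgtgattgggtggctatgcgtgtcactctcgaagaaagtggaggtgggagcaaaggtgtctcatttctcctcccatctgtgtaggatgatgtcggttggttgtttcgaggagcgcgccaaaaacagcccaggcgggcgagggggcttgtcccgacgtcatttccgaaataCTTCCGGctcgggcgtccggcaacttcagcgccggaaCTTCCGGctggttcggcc
Cox7a1, chr7:30183921-30184220, plus strand: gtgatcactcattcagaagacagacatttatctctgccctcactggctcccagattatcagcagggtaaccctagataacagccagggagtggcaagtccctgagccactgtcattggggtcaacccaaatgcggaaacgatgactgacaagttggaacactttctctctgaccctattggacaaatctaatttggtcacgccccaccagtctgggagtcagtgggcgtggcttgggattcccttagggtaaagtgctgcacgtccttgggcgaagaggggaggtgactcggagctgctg
Cox8b, chr7:140900397-140900696, minus strand: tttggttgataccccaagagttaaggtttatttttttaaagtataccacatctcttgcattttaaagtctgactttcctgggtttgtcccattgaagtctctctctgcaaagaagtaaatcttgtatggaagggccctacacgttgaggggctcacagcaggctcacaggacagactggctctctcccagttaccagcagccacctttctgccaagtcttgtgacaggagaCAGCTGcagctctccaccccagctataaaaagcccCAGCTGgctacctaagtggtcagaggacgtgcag

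The promoter of Cox6a1 held 2 NRF-1 motifs and 1 ETS motif, and that of Cox8a held 2 ETS motifs. The promoter of Cox7a2 held none of the motifs searched. Of the muscle forms, Cox8b held 2 E-boxes and Cox7a1 none of the motifs. Across the 62 subunits outside the tissue-specific forms that had a promoter, 22.6% held the NRF-1 motif and 25.8% the ETS motif, against 4.82% and 9.14% of 27025 promoters. The E-box stood in 8.06% of these 62 promoters and in 16.1% of all. The MEF2 site was found in none of the 78 and in 0.57% of all promoters. The 62 promoters were also richer in G and C, with a median of 59.0% against 52.7%. A match is a run of letters and not a measured binding site.

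The first comparison asked how the respiratory chain of the carcinomas differed from that of normal skin (n = 12 and 4). Most of its genes had a lower signal in the tumors, by a small amount, while 3 muscle forms of complex IV were lower by about 5 on the log2 scale. Of the 94 genes, 15 were lower in tumors at an adjusted p of 0.05, 1 was higher, and 78 did not pass. Over all 45037 probesets, 6.85% were called lower and 6.36% higher, or 13.2% in either direction. Read as 1 probeset per gene, the shares were 9.17% and 7.57%. The difference was negative for 75 of the 94 genes and positive for 19, with a median of −0.26, against a median of 0.07 over all probesets. Control and tumor arrays did not overlap at 8 lower genes and 1 higher gene, where 3.79% and 3.07% of all probesets were separated. Without control skin 3 and p53 tumor 7 there were 14 lower and 2 higher genes, and without p53 tumor 5 there were 26 lower and 1 higher. Of all 45037 probesets, 2784 were lower and 2223 higher in the former setting, and 3396 and 3169 in the latter.

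**Figure D1:**
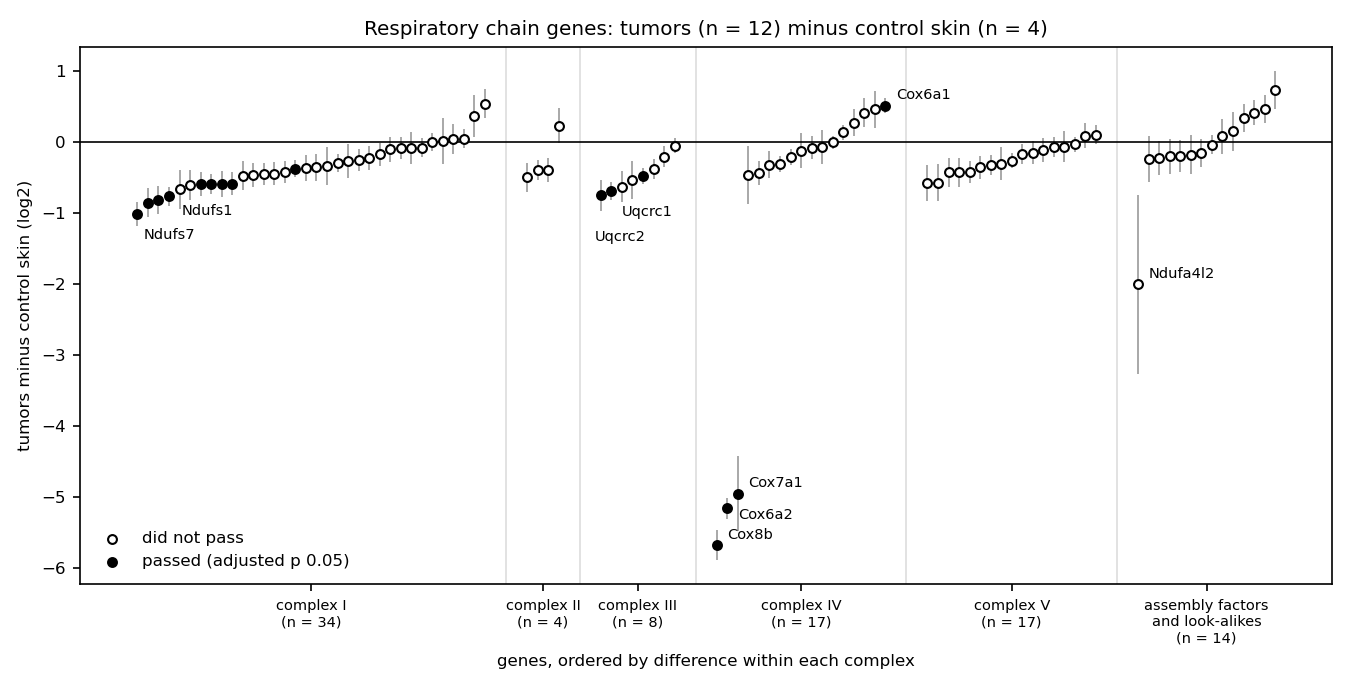
Log2 difference between tumors (n = 12) and control skin (n = 4) for each of the 94 genes, grouped by complex and ordered by size. Bars are standard errors of the limma fit and filled points passed an adjusted p of 0.05. The 3 muscle forms of complex IV stand at −4.95 to −5.67, and Cox6a1 is the only filled point above 0.

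The muscle forms of complex IV showed the largest differences among the 94 genes. Cox6a2, the heart and muscle form of subunit 6a, read 12.41, 12.14, 12.12 and 12.21 in control skin. In the p53 tumors it ran from 6.60 over a median of 6.96 to 7.05, and in the pRbp53 tumors it read 6.90, 7.12, 7.10, 7.35 and 7.75. The groups were far apart, and the highest tumor, pRbp53 tumor 5, was also the tumor with the highest skeletal muscle markers. The difference was −5.16 ± 0.15 (SE, limma adjusted p = 4.68e-13), a 35.7-fold lower signal.

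Cox7a1, the heart and muscle form of subunit 7a, read 9.91, 9.61, 9.24 and 9.88 in control skin. It ran from 3.84 over 4.27 to 7.87 in the p53 tumors and from 4.28 over 4.39 to 5.26 in the pRbp53 tumors. The value of 7.87 belonged to p53 tumor 5, while no other tumor exceeded 5.26. The difference was −4.95 ± 0.53 (SE, limma adjusted p = 6.65e-06). Brown fat also uses Cox7a1. Of 5 brown fat markers, Cidea and Elovl3 were lower in the tumors and 3 did not pass, with differences from −5.07 to 1.81. Elovl3 was also counted as a sebaceous gland marker, and the part of brown fat was not tested.

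Cox8b, the muscle form of subunit 8, read 10.46, 10.67, 10.17 and 10.71 in control skin, 4.37 to 4.94 in the p53 tumors and 4.45 to 5.55 in the pRbp53 tumors. The highest tumor thus lay far below the lowest control. The difference was −5.67 ± 0.21 (SE, limma adjusted p = 1.02e-11). Every tumor value of Cox8b, and of Cox7a1 in all tumors but p53 tumor 5, was below the array medians of 5.63 to 5.76, where a signal may be mostly background, so these sizes are best read as lower bounds. The 21 skeletal muscle markers, among them the myosin chain Myh4 at −9.13 ± 0.51 (SE), had a median difference of −7.22, and their part in these results was not tested.

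The general forms of the same subunits showed no such difference. Cox6a1, the counterpart of Cox6a2, read 12.49, 12.64, 12.87 and 12.57 in control skin and was above this range in every tumor, between 12.91 and 13.46. It was the only one of the 94 genes called higher, by 0.51 ± 0.10 (SE, limma adjusted p = 0.00303), or 1.43-fold. Cox7a2 had a mean of 12.36 ± 0.06 (SD, n = 4) in control skin and 12.28 ± 0.31 (SD, n = 12) in tumors. Cox8a read 10.36 ± 0.08 in control skin and 10.63 ± 0.38 in tumors (SD, n = 4 and 12). Neither passed (limma adjusted p = 0.799 and 0.402), and for both the groups overlapped.

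The muscle form was set against the general form within each array, so that the test compared the change of a pair and not the levels of its probesets. The gap fell by 5.67 for Cox6a2 and Cox6a1, by 4.87 for Cox7a1 and Cox7a2 and by 5.94 for Cox8b and Cox8a on the log2 scale. An exact permutation test, two-sided, gave p = 5.49e-04 for each of these 3, which is the lowest value its 1820 arrangements allow, and 7.33e-04 after Benjamini-Hochberg adjustment over 4 pairs. The fourth pair was Cox4i2, a form found mainly in lung, and Cox4i1, its general counterpart. Its gap differed by 0.53 (exact permutation p = 0.109, also 0.109 after adjustment). Cox4i2 was dim, at 5.57 ± 0.11 (SD, n = 4) in control skin, and read 6.97, 6.89 and 6.71 in p53 tumor 2 and pRbp53 tumors 3 and 4.

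**Figure D2:**
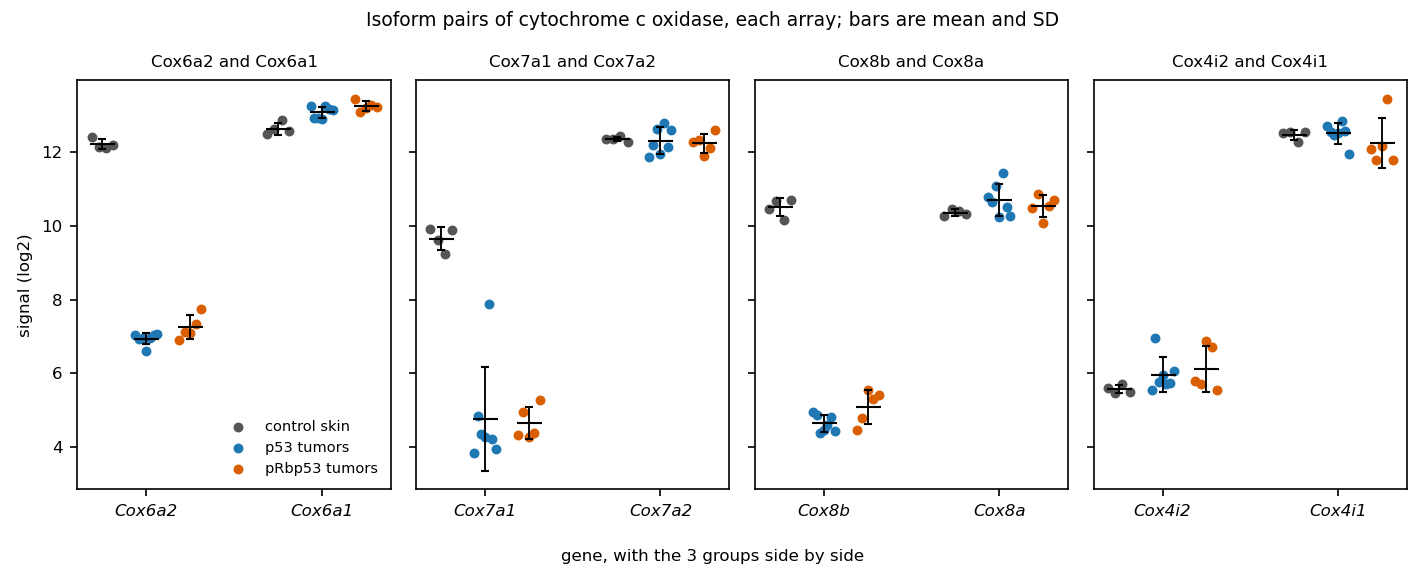
Log2 signal of both genes of 4 pairs of complex IV isoforms on each array, in control skin (grey, n = 4), p53 tumors (blue, n = 7) and pRbp53 tumors (orange, n = 5), with mean and SD. Cox6a2, Cox7a1 and Cox8b lie at 9.24 or above in control skin and at 7.87 or below in the tumors, while Cox6a1, Cox7a2 and Cox8a stay near their control values. Signals of different genes come from different probes and are not comparable as levels.

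In the rest of complex IV the differences were small. Its 10 subunits outside the muscle, testis and lung forms had a median difference of −0.10, and none was called lower at the probesets read. Cox5a and Cox5b, which sit on the matrix side of the enzyme, differed by −0.32 ± 0.19 and −0.31 ± 0.11 (SE, limma adjusted p = 0.305 and 0.0762). Of 6 probesets of Cox5b, 1 other passed, at −0.44 (limma adjusted p = 0.0355), and a dim plain one differed by 0.12. Cox4i1 differed by −0.07 ± 0.24 (SE), with pRbp53 tumor 4 at 13.45 and the other tumors at 11.78 to 12.86. The testis forms Cox6b2, Cox7b2 and Cox8c did not pass. Cox7c and Ndufb4 were read from dim probesets, with means of 6.60 and 3.78, and are uncertain.

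In complex I, 9 of 34 subunits were lower in the tumors, none was higher and 29 had a negative difference, with a median of −0.36. Ndufs7, a core subunit that carries the iron-sulfur cluster nearest to ubiquinone, read 11.15, 11.05, 11.49 and 10.9993 in control skin. Among the tumors it ran from 9.64 over 10.11 to 10.88, and the highest value was again that of p53 tumor 5. No tumor reached a control. The difference was −1.01 ± 0.17 (SE, limma adjusted p = 7.70e-04), or 2.02-fold.

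Ndufs1, the largest subunit of complex I and a carrier of iron-sulfur clusters, read 10.42, 10.44, 9.99 and 10.42 in control skin. Its tumor values ran from 9.23 over 9.56 to 9.93, all below the controls. It differed by −0.76 ± 0.13 (SE, limma adjusted p = 0.00112). Of the other core subunits, Ndufs3, Ndufs8, Ndufv1 and Ndufv2 did not pass, with differences of −0.36, −0.08, −0.30 and −0.45. Ndufv1 holds the flavin that accepts electrons from NADH, and Ndufv2 lies beside it.

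Accessory subunits surround this core. Ndufa3 differed by −0.86 ± 0.20 and Ndufb10 by −0.81 ± 0.19 (SE, limma adjusted p = 0.0105 and 0.00972). Ndufa3 read 11.63 to 11.86 in control skin and 10.41 to 11.28 in 11 of the 12 tumors. The remaining tumor, p53 tumor 5, stood at 11.94, above the controls. For Ndufb10, p53 tumors 5 and 7 read 10.33 and 10.45, within the control range of 10.28 to 10.53, and the other tumors 9.24 to 9.74. A further 5 accessory subunits were lower, which are named after their values were seen: Ndufa13 (−0.59), Ndufb3 (−0.59), Ndufb5 (−0.59), Ndufv3 (−0.58) and Ndufa10 (−0.37). Control skin and tumors overlapped for all of these but Ndufv3, where the lowest control, at 10.498, was barely above the highest tumor, at 10.4957.

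All 8 subunits of complex III had a negative difference, with a median of −0.51, and 3 were called lower. Uqcrc1, a core protein of the matrix side, read 11.39, 11.31, 11.15 and 11.20 in control skin. It ran from 10.28 over 10.54 to 11.10 in the tumors, with p53 tumor 3 close below the lowest control. The difference was −0.69 ± 0.13 (SE, limma adjusted p = 0.00141), or 1.62-fold.

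Uqcrh, the hinge protein that binds cytochrome c1, differed by −0.47 ± 0.11 (SE, limma adjusted p = 0.0104), with the tumors at 11.20 to 11.90 and the controls at 11.90 to 12.16, apart only before rounding. Uqcrc2, the partner of Uqcrc1, differed by −0.75 ± 0.22 (SE, limma adjusted p = 0.0346). It did not pass when any 1 of the 4 controls was left out. Its control values of 11.03, 11.17, 10.83 and 11.12 overlapped with p53 tumors 2 and 5, at 10.95 and 11.01. A second probeset of Uqcrc2, of nearly equal brightness, differed by −0.69 and did not pass (limma adjusted p = 0.0520). Uqcrfs1, the Rieske iron-sulfur protein, differed by −0.54 ± 0.27 (SE) and did not pass. Uqcr10, named after its values were seen, gave different answers by probeset, at −0.05 on its brightest and, on a dim plain one, at 2.37 with a call.

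Complex II and complex V held no called gene at the probesets read. The 4 subunits of complex II differed by −0.39 ± 0.17 (Sdha, the flavoprotein), −0.50 ± 0.20 (Sdhb, the iron-sulfur subunit), −0.40 ± 0.14 (Sdhc) and 0.23 ± 0.24 (Sdhd), the latter pair being the membrane anchors (SE). A second probeset of Sdha, dimmer and of a type that can match other transcripts, differed by −1.04 and passed (limma adjusted p = 0.00142). Control skin 3 was the lowest control for all 4 of these genes, and Sdhd read 9.28 there against 10.17 to 10.40 in the other controls.

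In complex V, 15 of 17 subunits had a negative difference, with a median of −0.26. Atp5a1 and Atp5b, which form the catalytic head, differed by −0.30 ± 0.23 and −0.06 ± 0.22, and Atp5c1, the rotating shaft, by −0.42 ± 0.15 (SE, limma adjusted p = 0.448, 0.889 and 0.0845). A dimmer probeset of Atp5k, a small membrane subunit named after its values were seen, differed by −0.50 and passed (limma adjusted p = 0.0354), while the one read differed by −0.26 and did not. Atp5c1 read 12.13 to 12.31 in control skin and 11.33 to 12.10 in all tumors but p53 tumor 5, at 12.45.

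The 14 genes outside the complexes had no call and a median of −0.10. Ndufa4l2, a relative of Ndufa4 that is induced by low oxygen, had the largest spread of the 94 genes among tumors, with an SD of 2.60. It was singled out after its values were seen. Control skin read 10.25 to 10.78. Among tumors it was 12.77 in p53 tumor 7, 12.47 in pRbp53 tumor 4, 11.30 in pRbp53 tumor 3 and between 5.78 and 10.11 in the other 9, so that 3 tumors lay above the controls and 9 below.

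The tumors were not alike in the level of the chain. Over the 73 subunits that are not muscle, testis or lung forms, 1 was higher and 12 were lower, with a median difference of −0.32. The mean deviation of these 73 from the control mean was −0.11 to 0.06 in the controls and −0.47 to −0.18 in 11 of the 12 tumors. In p53 tumor 5 it was 0.19. That tumor had the highest tumor signal at 46 of the 73 genes (63.0%), against 12.6% of all 18193 genes. It read above the control mean for complexes I (0.20), V (0.26) and the general part of IV (0.42), and below it for complexes II (−0.27) and III (−0.12). In the same array the 6 fibroblast markers had their lowest mean, a deviation of −4.28 against −2.60 to 0.75 in the other tumors, and the keratinocyte markers stood at 4.75. The part of either was not tested.

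Among controls, control skin 3 was the lowest at 39 of the 73 genes (53.4%), against 26.1% of all genes. It is 1 of the arrays with a large actin difference. Its adipocyte markers were also the lowest, with a mean deviation of −1.40 against 0.30 to 0.79 in the other controls. These values stand beside the result, and their part in it was not tested.

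**Figure D3:**
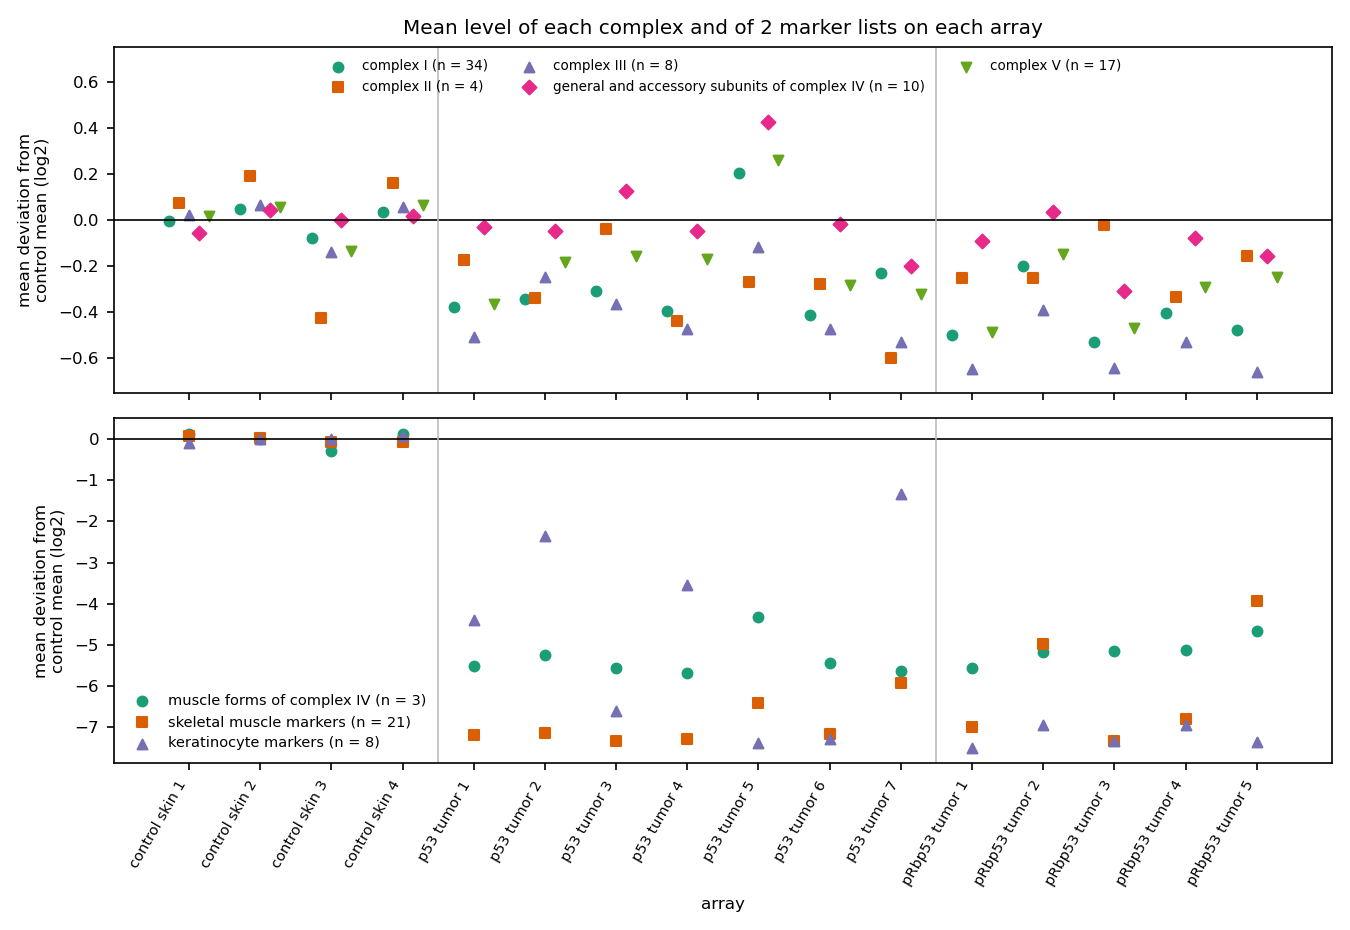
Mean deviation from the control mean (log2) on each array, for each complex with complex IV limited to its general and accessory subunits (upper panel) and for the muscle forms of complex IV with the skeletal muscle and keratinocyte markers (lower panel). Complexes I and V lie below 0 in all tumors but p53 tumor 5. The muscle forms lie at −4.32 or lower in every tumor.

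The 3 muscle forms were also set beside the skeletal muscle markers among tumors, and how they relate was not tested. Every tumor value of Cox8b, and of Cox7a1 outside p53 tumor 5, lay below the array medians, where a signal may be mostly background. The mean deviation of the skeletal muscle markers was −3.93 in pRbp53 tumor 5, −4.98 in pRbp53 tumor 2 and −5.92 in p53 tumor 7, and −6.42 or lower in the other 9. That of the muscle forms was −4.66, −5.18 and −5.65 in the same 3 tumors and −4.32 in p53 tumor 5. In p53 tumor 5, Cox7a1 read 7.87, Cox6a2 6.96 and Cox8b 4.59. The 73 other subunits deviated by −0.38, −0.18 and −0.30 in pRbp53 tumor 5, pRbp53 tumor 2 and p53 tumor 7. In the remaining tumors they deviated by −0.47 to −0.20, apart from 0.19 in p53 tumor 5.

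Other mitochondrial genes were read by the same fit. The counts of lower genes in these lists stand beside 9.17% of all genes called lower. Of 17 genes of the citric acid cycle 5 were lower and none higher, with a median of −0.43. Examples are Ogdh, of the oxoglutarate dehydrogenase complex, at −1.19 ± 0.20, and Cs, citrate synthase, at −1.15 ± 0.29 (SE, limma adjusted p = 8.58e-04 and 0.0148). Fatty acid oxidation had 8 of 15 lower, none higher and a median of −0.81, with Hadh at −1.40 ± 0.31 and Acadm at −1.22 ± 0.23 (SE), both dehydrogenases of the pathway. Of 16 genes of ubiquinone synthesis and cytochrome c, 4 were lower and none higher, with a median of −0.40. Among them Coq8a, a kinase-like protein needed for ubiquinone synthesis, differed by −2.91 ± 0.39 and Coq10a, a ubiquinone-binding protein, by −2.01 ± 0.24 (SE, limma adjusted p = 1.00e-04 and 2.38e-05).

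Of 11 carriers and creatine kinases 5 were lower, with a median of −0.68. Ckmt2, the mitochondrial creatine kinase of striated muscle, read 10.07 to 10.94 in control skin and 3.14 to 4.82 in tumors, a difference of −7.02 ± 0.24 (SE, limma adjusted p = 3.88e-12), with the tumors again below the array medians. Slc25a4, the adenine nucleotide carrier of heart and muscle, differed by −1.31 ± 0.32 (SE). Of 14 regulators of mitochondrial biogenesis, Perm1, which acts in muscle, and Ppara were lower, at −1.68 ± 0.10 and −1.50 ± 0.25 (SE), and none was higher. The median of these 14 was 0.04, and 2 of 14 is near the share of all genes called lower.

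Among the genes that make and import mitochondrial proteins, none was lower. Of 76 genes of the mitochondrial ribosome 7 were higher and none lower, with a median of 0.29, and of 24 genes of protein import 4 were higher and none lower, with a median of 0.29. Mrpl13, a protein of the large subunit, differed by 0.88 ± 0.15 and Timm8a1, of the inner membrane import system, by 0.97 ± 0.22 (SE, limma adjusted p = 6.83e-04 and 0.00799). The shares called higher, 7 of 76 and 4 of 24, stand beside 7.57% of all genes. Of 31 other assembly factors 2 were higher and 1 lower, with a median of 0.07. Sco1 and Cox18, which serve complex IV, were higher by 0.68 ± 0.13 and 0.58 ± 0.18, and Ecsit, which serves complex I, differed by −0.70 ± 0.15 (SE, limma adjusted p = 0.00193, 0.0461 and 0.00414). The 2 uncoupling proteins and ND5, the only gene of mitochondrial DNA with a probeset here, did not pass.

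**Figure D4:**
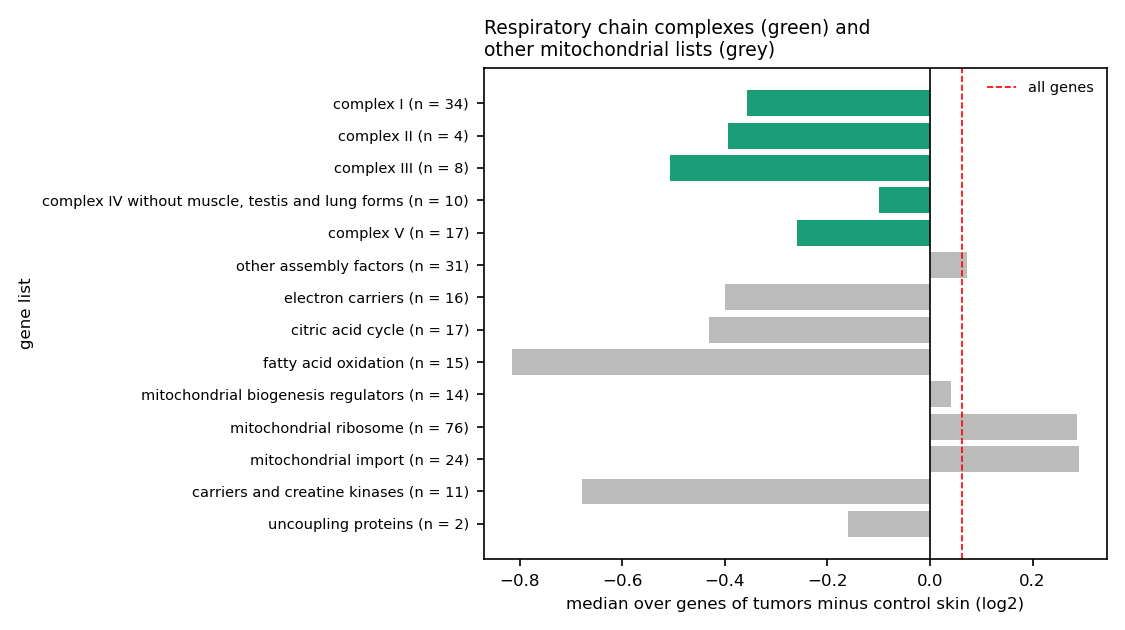
Median log2 difference between tumors (n = 12) and control skin (n = 4) over the genes of each complex (green) and of other mitochondrial lists (grey), with the median over all 18193 genes as a dashed line. All 5 complexes lie below 0, from −0.51 for complex III to −0.10 for complex IV without its muscle, testis and lung forms, and the mitochondrial ribosome and import lie at 0.29.

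The second comparison set the pRbp53 tumors against the p53 tumors (n = 5 and 7), to ask what the added loss of pRb changes. None of the 94 genes passed an adjusted p of 0.1 in limma, where 0.198% of all probesets did. With so low a share, the lack of a call says little about the chain. For none of the genes were the genotypes separate, and the share of all probesets with separate genotypes was not counted. At an unadjusted p of 0.05 there were 8 genes, against 9.29% of all probesets, and the methods' t-test called none after adjustment. The lowest adjusted p was that of Uqcrc2, 0.217 in limma, with a difference of −0.67 ± 0.17 (SE). It read 9.72 to 10.10 in the pRbp53 tumors and 10.0005 to 11.01 in the p53 tumors. Without p53 tumor 6, which is a spindle cell carcinoma, Uqcrc2 passed at −0.77 ± 0.14 (SE, limma adjusted p = 0.0729). Among spindle cell carcinomas only, its difference was −0.15 ± 0.17 (SE, limma adjusted p = 0.842), with that tumor as the sole p53 sample, assumed to vary like the others. The difference between genotypes was negative for 68 of the 94 genes, with a median of −0.13 against −0.01 over all probesets.

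Each genotype was also set against the same 4 controls, which the comparisons share. The p53 tumors had 6 lower and 2 higher genes, where 5.91% and 4.74% of all probesets were called. The pRbp53 tumors had 28 lower and 3 higher, where 9.72% and 8.57% were called. Ndufs7 differed by −0.96 ± 0.18 in the p53 tumors and by −1.09 ± 0.18 in the pRbp53 tumors (SE). Uqcrc2 differed by −0.47 ± 0.18 and −1.14 ± 0.12 (SE, limma adjusted p = 0.139 and 1.89e-04). Ndufs5, an accessory subunit of complex I, differed by 0.70 ± 0.14 in the p53 tumors, which passed, and by −0.09 ± 0.31 in the pRbp53 tumors (SE). It is named after its values were seen, and its difference between genotypes did not pass. These unequal counts of calls are no test of the genotypes, for which the comparison of the tumors with each other stands.

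The third comparison set the 6 undifferentiated or spindle tumors against the 3 poorly differentiated ones, with the mixed tumors left out. All 3 poorly differentiated tumors were p53 tumors and 4 of the other 6 were pRbp53 tumors, so histology and genotype are partly confounded. The keratinocyte markers of p53 tumor 5, labelled poorly differentiated, deviated from control skin by −7.39, against −2.34 and −3.56 in the other 2 of its kind and −6.62 to −7.51 in the undifferentiated or spindle tumors. The 3 genes called here also passed without that tumor. Of the 94 genes 2 were lower and 1 was higher in the undifferentiated or spindle tumors, where 3.99% and 3.4% of all probesets were called, or 7.39% in either direction. The difference was negative for 69 genes and the median was −0.24, against 0.01 over all probesets. The groups were separate for 9 lower genes and 1 higher gene, where this held for 6.81% and 6.99% of all probesets. At an unadjusted p of 0.05 there were 20 genes, 19 of them lower, against 21.9% of all probesets.

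Uqcrc2 read 10.95, 10.63 and 11.01 in the poorly differentiated tumors and 10.33, 10.0005, 9.86, 10.01, 9.80 and 9.72 in the undifferentiated or spindle tumors. No tumor of one histology reached the other. The difference was −0.91 ± 0.15 (SE, limma adjusted p = 0.00956). Sdhaf1, which helps to mature the iron-sulfur subunit of complex II, read 8.43, 8.19 and 7.85 against 7.30, 7.55, 6.79, 7.35, 7.53 and 7.04. It differed by −0.90 ± 0.20 (SE, limma adjusted p = 0.0293).

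Sdhb moved the opposite way, with 10.62, 10.20 and 9.81 in the poorly differentiated tumors and 10.92 to 11.15 in the others, a difference of 0.76 ± 0.16 (SE, limma adjusted p = 0.0255). The groups were separate, the lowest value being that of p53 tumor 5. Within the p53 tumors alone (2 undifferentiated or spindle against 3 poorly differentiated) the differences were −0.70, −0.73 and 0.73, and none of the 3 genes passed (limma adjusted p = 0.185, 0.208 and 0.280). Of all 45037 probesets 827 passed there, against 3326 in the main fit. Of 6 fibroblast markers 5, and of 5 macrophage markers 4, were higher in the undifferentiated or spindle tumors. The mean of the fibroblast markers was 12.27 to 13.84 there and 8.81 to 10.92 in the poorly differentiated tumors, and its part in these results was not tested. Atp5a1 and Atp5b also had separate groups, at −0.62 and −0.53, without passing.

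**Figure D5:**
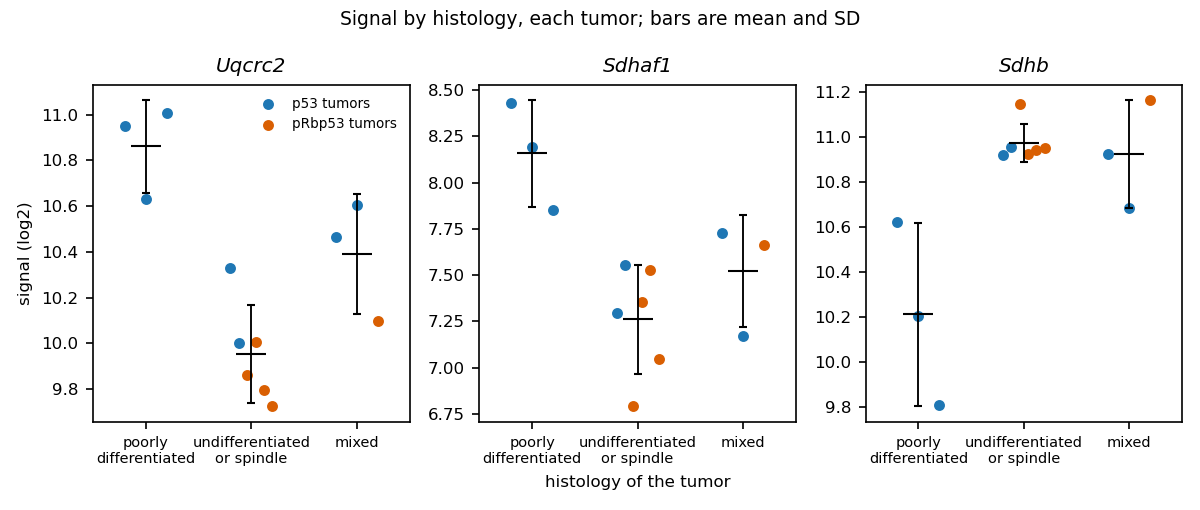
Log2 signal of Uqcrc2, Sdhaf1 and Sdhb in each tumor by histology, p53 tumors in blue and pRbp53 tumors in orange, with mean and SD (n = 3 poorly differentiated, 6 undifferentiated or spindle, 3 mixed). Uqcrc2 and Sdhaf1 are lower and Sdhb is higher in the undifferentiated or spindle tumors than in the poorly differentiated ones, which are all p53 tumors.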

How the data were processed

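The authors hybridised RNA to MOE430 2.0 arrays of Affymetrix and processed the scans by RMA, a method of background correction, normalization between arrays and summary over probes. The deposited values are log2 signal intensities, and the version of RMA is not given in the sources used here. Of 45101 probesets, 64 array controls were left out. Genes were named from an annotation of 2016; 932 probesets carried several symbols, and 10 of these touched a symbol of the chain and were left out. Of the 94 genes 53 had several probesets, 48 were read from probesets of types that can match related transcripts, and 6 had probesets with different calls, none opposite. Promoters are those of RefSeq, 1 per gene.

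Two-sided linear models were fitted to all 45037 probesets with limma 3.58.1 in R 4.3.3, with Benjamini-Hochberg adjustment at 0.05 for tumors against control skin and for histology and at 0.1 for genotype. Isoform pairs were compared by exact permutation. The fits were tested on simulated data. Nothing in the labels says that samples came from separate animals, so p-values measure the spread between samples only. Precision is limited by how many arrays there are. Replicate numbers were not taken to pair the samples. Of 13 same-numbered pairs, 3 had deviations that correlated above 0.1, in a range of −0.23 to 0.25. Pairs with different numbers were not set beside them, so this check cannot decide whether samples are paired.

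The members and lists were chosen with earlier results of these data known. Genes are named by a rule that takes the isoform pairs, the core subunits, up to 4 lower members per complex, every higher member, members called by genotype or histology and up to 3 called genes per list, and others are marked. Alternatives were a replicate block, brighter probesets, quantile normalization, median centring, another prior, array weights, the methods' t-test (run as Welch's), other probesets, subsets of samples, other thresholds and leaving out each array. Trp53 is not reported here. Figures were drawn with matplotlib 3.10.9.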

Additional observations from a re-analysis of the deposited data

Results flagged for a closer look

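Single arrays that stood apart from their group by Dixon's test at 95% confidence were found in 14 of 90 groups of named genes. Chance gives about 1 in 20 for a single group. The genes were read on the same arrays, so the groups are not independent and the count is no test. Control skin 3 was the low one in 6 of the 14. It read 11.73 for Atp5a1 (12.45 to 12.50 in the other controls), 12.27 for Cox4i1 (12.53 to 12.54), 11.63 for Ndufa3 (11.84 to 11.86), 9.99 for Ndufs1 (10.42 to 10.44), 10.26 for Sdhc (10.69 to 10.75) and 10.63 for Uqcrfs1 (11.29 to 11.33). The part of its actin difference of 1.33 in these values was not tested. Without control skin 3, 12 of the 94 genes were lower and 1 was higher in the tumors, beside 2456 and 1756 of all 45037 probesets.

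A further 2 belonged to p53 tumor 5, which read 7.87 for Cox7a1 (3.84 to 4.83 in the other p53 tumors) and 10.88 for Ndufs7 (9.85 to 10.29). Among the p53 tumors, tumor 7 was low for Cox4i1 at 11.94 (12.48 to 12.86), tumor 2 high for Cox4i2 at 6.97 (5.55 to 6.06) and tumor 4 low for Cox6a2 at 6.60 (6.94 to 7.05). Among the pRbp53 tumors, tumor 4 was high for Cox4i1 at 13.45 (11.78 to 12.16), tumor 1 low for Ndufs3 at 9.68 (10.33 to 10.50) and tumor 3 low for Ndufv1 at 9.67 (10.20 to 10.40).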

How the results depend on the processing

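The number of array samples sets the limits here, with 4 controls and 3 poorly differentiated tumors. Cox6a2, Cox7a1, Cox8b, Cox6a1, Ndufs7, Ndufs1 and Uqcrc1 kept their calls in all 31 settings tried for tumors against control skin, and no called result turned its direction. Among named genes that did not pass, Sdhd was −0.02 without control skin 3, Cox5b was 0.12 on plain probesets, Cox4i1 was 0.04 and Atp5b 0.13 with the p53 tumors alone, and Atp5b was also slightly positive in 4 other settings. The 15 lower genes became 7 at an adjusted p of 0.01, 47 with array weights and 32 with the methods' t-test. They became 6 with the p53 tumors alone and 28 with the pRbp53 tumors alone. Of all 45037 probesets, 3086 were lower in the main fit, 5863 with array weights and 3905 with the methods' t-test. With the p53 tumors alone 2663 were lower, and with the pRbp53 tumors alone 4378. Among the 94 genes, leaving out each array in turn gave 10 to 26 lower ones, the highest without p53 tumor 5 and the lowest without control skin 1, 2 or 4. Over all probesets 3396 were lower without p53 tumor 5, and 2325, 2376 and 2408 without control skin 1, 2 and 4. The 1 higher gene became 4 with array weights or the methods' t-test and 3 with the pRbp53 tumors alone. It became 2 with the p53 tumors alone, with plain probesets, with the replicate block and without control skin 3 and p53 tumor 7. Leaving out each array gave 1 to 2, the 2 without p53 tumor 7 or pRbp53 tumor 4. Over all probesets 2863 were higher in the main fit, 8542 with array weights and 5082 with the methods' t-test. The pRbp53 tumors alone gave 3859 and the p53 tumors alone 2137. The replicate block gave 13 lower genes, beside 2817 of all probesets, and averaging control skin 2 and 4 gave 10, beside 2371. With each array centred on its median, 13 were lower and 1 higher, and the median over all probesets moved from 0.07 to 0.12; among all called probesets the share of higher ones then was 55.9% in place of 48.1%. Uqcrc2 lost its call in 10 settings, and Uqcrh, Ndufa3 and Ndufb10 lost theirs with the p53 tumors alone.

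By genotype no setting called a gene, except that leaving out each array gave 0 to 1 lower genes. By histology, the 1 higher and 2 lower genes both became 0 with the methods' t-test, with only p53 tumors and with the replicate block. Of all 45037 probesets these settings called 825, 827 and 0, against 3326 in the main fit. The replicate block thus called nothing on the array, and its 0 says nothing about these genes. The lower genes were 7 at an adjusted p of 0.1 and 0 with the mixed tumors added, where 844 of all probesets were lower. Leaving out each array gave 0 to 1 higher and 1 to 3 lower genes. Sdhb lost its call without p53 tumor 4, pRbp53 tumor 1 or pRbp53 tumor 5, and Sdhaf1 without p53 tumor 2, 3 or 4 or pRbp53 tumor 5. The gap of Cox4i2 and Cox4i1 was 0.78 with the pRbp53 tumors alone (exact permutation p = 0.0238). In the replicate block, by permutation within replicate numbers, the other 3 gaps fell by 5.71, 5.05 and 5.89 (exact permutation p = 0.0123 for each). Only arrays whose replicate number a control also had entered this test, and the p is the lowest it allows. The causes of these changes were not tested.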
